A study of Drosophila melanogaster with 9 samples.

Results

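The genes described here are 32 Drosophila genes of muscle contraction, listed as components of the sarcomere and its attachments that the muscle of the ovary sheath uses. They were listed by function, with earlier results of these data known. Of the 32, 31 were found among the 13937 genes of the deposited tables, and 29 of those had enough counts to be tested. Zasp52 was not matched, and fln and Act79B were below the filter on low counts. Act88F, TpnC4 and TpnC25D passed that filter through the double-GKD and Piwi-GKD-labelled libraries, in which they were higher, and would not have passed on the HP1a-GKD-labelled and Ctrl libraries alone.

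Each ovariole of the fly ovary is wrapped in an epithelial sheath that holds a net of muscle cells, and the whole ovary is held in a further muscular layer, the peritoneal sheath. These muscles contract to move egg chambers towards the oviduct. Like other insect muscle they are striated: thick filaments of myosin slide past thin filaments of actin, calcium acts on the thin filament through the troponin complex and tropomyosin, and thin filaments are anchored at the Z-disc, with titin-like proteins joining Z-disc and thick filament. The sheath is somatic tissue, while the RNAi driver used here is one of germ cells.

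The females were 0 to 1 days old and had been kept at 18 °C. RNA of their whole ovaries, depleted of rRNA, was read in 8 libraries, 2 biological replicates for each of 4 genotypes. The double-GKD (germline knockdown) females carried a UAS-Piwi-RNAi construct (VDRC line #101658) together with a UAS-HP1a-RNAi construct (VDRC line #31994) and no balancer. By their labels, Piwi-GKD females carried the first of these constructs and the TM3 balancer, and HP1a-GKD females carried the second and the Cy balancer. Ctrl females carried both Cy and TM3 and no RNAi construct. All 4 genotypes were sisters from 1 cross and also carried 1 copy of UAS-Dcr-2.D with w[1118], and of GAL4-nos.NGT (insertion 40), a GAL4 driver under the nanos promoter that is active in germ cells. The knockdowns thus differ from Ctrl in their balancers as well as in their RNAi constructs, and the effects of the 2 cannot be told apart.

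The labels of the single knockdowns did not match the mRNA of their targets. piwi, which encodes the nuclear Argonaute protein of the piRNA pathway, stood at 158 and 147 TPM (transcript abundance per length, summing to the same total in each library) in double-GKD, at 259 and 229 TPM in Piwi-GKD-labelled libraries, at 129 and 134 TPM in HP1a-GKD-labelled libraries and at 318 and 276 TPM in Ctrl. The gene of HP1a, a heterochromatin protein, stood at 161 and 172 TPM in double-GKD, at 166 and 189 TPM in Piwi-GKD-labelled libraries, at 342 and 358 TPM in HP1a-GKD-labelled libraries and at 327 and 328 TPM in Ctrl. The names of the deposited tables also gave these 4 libraries the opposite genotype. Both groups thus go by their labels alone here, as Piwi-GKD-labelled and HP1a-GKD-labelled libraries, and every statement on a single knockdown holds for the libraries and not for a genotype. The libraries totalled 10773406 to 12802084 estimated counts, so that a floor of 3 counts was 0.278 CPM in the smallest and 0.234 CPM in the largest (counts scaled to library size). Because PCR copies of 1 molecule can be read more than once, this floor and the intervals of counts cover counting error only.

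The muscle genes covered a wide range of levels, compared between genes in TPM, which is per length. In double-GKD, 17 of the 31 averaged over 100 TPM, 25 over 10 TPM and 30 over 1 TPM. These counts were 18, 24 and 28 in Piwi-GKD-labelled libraries, 14, 22 and 25 in HP1a-GKD-labelled libraries and 13, 22 and 26 in Ctrl. The highest level was that of Act57B, an actin of larval and adult muscle, with 2386 ± 418 TPM in double-GKD, 2356 ± 630 TPM in Piwi-GKD-labelled libraries, 843 ± 76.4 TPM in HP1a-GKD-labelled libraries and 727 ± 59.0 TPM in Ctrl (SD, n = 2 each). The defining proteins of sarcomeric muscle, Mhc, Mlc1, Mlc2, Tm2, wupA and up, were all above 250 TPM in every library. By contrast, the actins Act88F and Act79B and the flight muscle protein fln stayed below 5 TPM in every library.

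**Figure D1:**
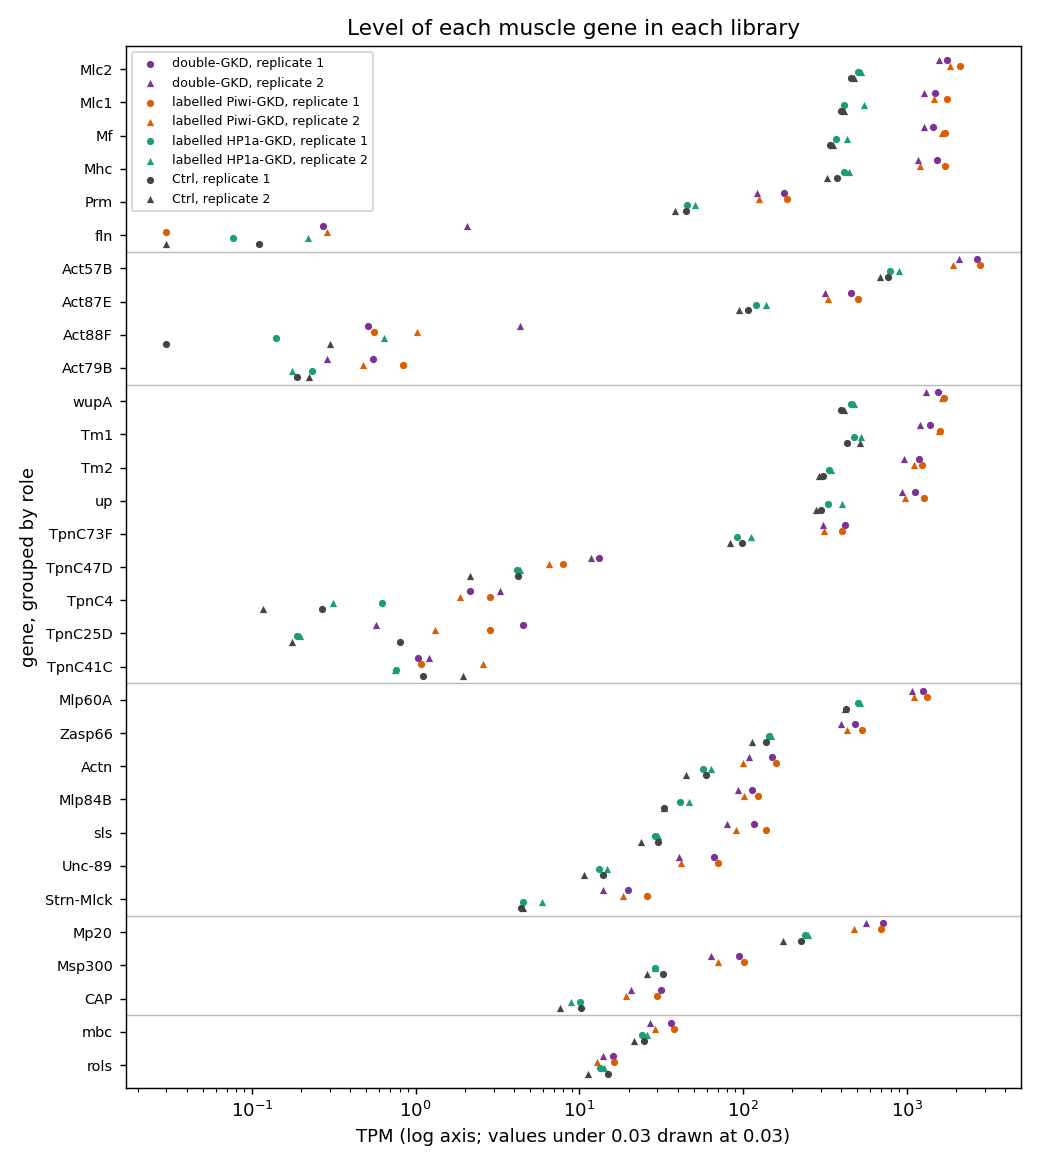
Level of each of the 31 muscle genes in each of the 8 libraries, in TPM on a log axis, with the genes grouped by role; circles are replicate 1 and triangles replicate 2. Double-GKD and Piwi-GKD-labelled libraries lie to the right of HP1a-GKD-labelled libraries and Ctrl for most genes, while mbc and rols lie close together in all groups.

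In double-GKD and in Piwi-GKD-labelled libraries, nearly the whole contractile apparatus stood higher than in Ctrl, whereas no muscle gene passed the threshold in HP1a-GKD-labelled libraries. In edgeR, at an adjusted p under 0.05, 24 of 29 muscle genes rose and 0 fell in double-GKD, against a background of 28.1% of all 9346 tested genes that rose and 28.1% that fell. In Piwi-GKD-labelled libraries, 23 rose and 1 fell, against a background of 29.3% up and 29.1% down. The median log2 fold change of the muscle genes was 1.49 in double-GKD, or 2.81-fold, and 1.55 in Piwi-GKD-labelled libraries, or 2.94-fold, beside 0.00 over all tested genes in each comparison. Without Act88F, TpnC4 and TpnC25D, 23 of 26 rose in double-GKD, with a median of 1.48, and 22 of 26 in Piwi-GKD-labelled libraries, with a median of 1.53. These 2 comparisons share their Ctrl libraries. Fewer cells of a type and less RNA per cell cannot be told apart in these bulk libraries.

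The sum over the 31 genes shows the same order. It was 18354 and 15087 TPM in double-GKD, 20293 and 16675 TPM in Piwi-GKD-labelled libraries, 5478 and 6069 TPM in HP1a-GKD-labelled libraries and 5058 and 4875 TPM in Ctrl. Thus 1.84% and 1.51% of all TPM in double-GKD belonged to these genes, against 0.506% and 0.488% in Ctrl, and the double-GKD and Piwi-GKD-labelled libraries did not overlap with the other 4. TPM values carry no scaling between libraries, and over all genes the median log2 TPM ratio exceeded the fitted value by 0.32 in double-GKD and by 0.40 in Piwi-GKD-labelled libraries. All fold changes below are therefore from the fit. Values per library beside them are in CPM after TMM scaling, unless marked as TPM or estimated counts. Those in TPM carry the shift just given, so their ratios differ from the fitted fold changes.

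The thick filament genes moved as a block, with all 5 tested members up in both comparisons and fold changes within a narrow band. Mlc2, the regulatory light chain of muscle myosin and the most abundant of them, stood at 3131 and 3114 CPM in double-GKD, 3504 and 3547 CPM in Piwi-GKD-labelled libraries, 1169 and 1181 CPM in HP1a-GKD-labelled libraries and 1019 and 1189 CPM in Ctrl. The first 4 values lie far above the other 4, and HP1a-GKD-labelled libraries lie within the range of Ctrl. Its log2 fold change was 1.50 ± 0.09 (SE; edgeR adjusted p = 2.46e-05) in double-GKD and 1.67 ± 0.09 (adjusted p = 1.66e-05) in Piwi-GKD-labelled libraries. Mf, myofilin, a core protein of the thick filament, had 881 and 852 CPM in double-GKD, 969 and 1042 CPM in Piwi-GKD-labelled libraries, 299 and 334 CPM in HP1a-GKD-labelled libraries and 272 and 305 CPM in Ctrl. It rose by 1.59 ± 0.10 (adjusted p = 2.59e-05) in double-GKD and by 1.80 ± 0.10 (adjusted p = 1.69e-05) in Piwi-GKD-labelled libraries, there the largest log2 fold change among the 24 muscle genes with at least 100 counts in every library. Mhc, the only muscle myosin heavy chain gene of the fly, rose 3.08-fold in double-GKD and 3.11-fold in Piwi-GKD-labelled libraries. Mlc1, the muscle alkali light chain, rose by 1.45 and 1.59 on the log2 scale in the same order, and Prm, paramyosin, which forms the core of the thick filament, rose 2.84-fold and 2.83-fold.

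fln, flightin, binds the thick filament in flight muscle and was below the filter on low counts. It had 2.0 and 22.1 estimated counts in double-GKD, 0.0 and 2.5 in Piwi-GKD-labelled libraries, 1.0 and 2.1 in HP1a-GKD-labelled libraries and 1.0 and 0.0 in Ctrl. A single library, double-GKD replicate 2, held most of these counts. In a fit without the filter its log2 fold change in double-GKD was 4.10 ± 1.47 (adjusted p = 0.0570, edgeR). Without double-GKD replicate 1 it was 4.95. In that fit fln passed the filter only through double-GKD replicate 2, so this value is a description and not a test.

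Among the actins, Act57B had 3599 and 3118 CPM in double-GKD, 3473 and 2780 CPM in Piwi-GKD-labelled libraries, 1364 and 1499 CPM in HP1a-GKD-labelled libraries and 1276 and 1284 CPM in Ctrl. Both HP1a-GKD-labelled libraries lie above both Ctrl libraries, but by far less than the others do. It rose by 1.39 ± 0.13 on the log2 scale in double-GKD (adjusted p = 0.000111, edgeR) and by 1.29 ± 0.13 in Piwi-GKD-labelled libraries (adjusted p = 0.000146). Act87E, a muscle actin with a lower level in these ovaries, rose 3.04-fold in double-GKD and 3.10-fold in Piwi-GKD-labelled libraries. The fly actins are close to identical in their coding sequence, so the division of reads among them is uncertain.

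Act88F, the actin of the indirect flight muscle, had 6.8 and 75.2 estimated counts in double-GKD, 7.9 and 15.7 in Piwi-GKD-labelled libraries, 2.5 and 10.9 in HP1a-GKD-labelled libraries and 0.0 and 5.7 in Ctrl. Its log2 fold change of 3.54 ± 1.36 in double-GKD (adjusted p = 0.0596, edgeR) did not pass the threshold, nor did 1.84 ± 1.49 in Piwi-GKD-labelled libraries (adjusted p = 0.322). The double-GKD value rests on replicate 2, the library that also held the counts of fln. Without replicate 1 of double-GKD the log2 fold change was 4.38, and without replicate 2 it was 1.19. With DESeq2 the adjusted p was 0.00791. This call is a description and not an independent test, because Act88F would not have passed the filter on HP1a-GKD-labelled and Ctrl libraries alone. Act79B, the actin of tubular muscles such as the jump muscle, had 3.1 to 12.2 estimated counts in every library and was below the filter; without the filter it was at 0.63 ± 0.60 in double-GKD (adjusted p = 0.509, edgeR) and at 1.26 ± 0.57 in Piwi-GKD-labelled libraries (adjusted p = 0.120).

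The genes of tropomyosin and troponin switch the thin filament on and off with calcium. Of the 9, 7 rose in double-GKD and 6 in Piwi-GKD-labelled libraries, with none down. wupA, troponin I, which holds the thin filament off at low calcium, had 1232 and 1160 CPM in double-GKD, 1244 and 1415 CPM in Piwi-GKD-labelled libraries, 473 and 474 CPM in HP1a-GKD-labelled libraries and 392 and 463 CPM in Ctrl. Its log2 fold change was 1.48 ± 0.11 in double-GKD (adjusted p = 4.59e-05, edgeR) and 1.64 ± 0.11 in Piwi-GKD-labelled libraries (adjusted p = 2.95e-05). up, troponin T, which ties troponin to tropomyosin, rose 2.83-fold in double-GKD and 2.94-fold in Piwi-GKD-labelled libraries, and Tm2, a tropomyosin, rose 2.81-fold and 2.93-fold in the same order. Tm1 rose 2.02-fold and 2.31-fold. It also makes cytoplasmic tropomyosins that are used outside muscle.

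The fly has several troponin C genes, the calcium sensors of the thin filament, and not all of them passed the test. TpnC73F, the most abundant of them here, rose 3.20-fold in double-GKD and 2.97-fold in Piwi-GKD-labelled libraries. TpnC47D had 4.10 and 4.07 CPM in double-GKD, 2.30 and 2.20 CPM in Piwi-GKD-labelled libraries, 1.69 and 1.70 CPM in HP1a-GKD-labelled libraries and 1.64 and 0.946 CPM in Ctrl. It rose in double-GKD, by 1.65 ± 0.30 (adjusted p = 0.00258, edgeR), and its log2 fold change of 0.79 ± 0.30 in Piwi-GKD-labelled libraries missed the threshold (adjusted p = 0.0560). Between these 2 groups the log2 difference was 0.86, with an interval of 0.20 to 1.52 and an adjusted p of 0.287, and so TpnC47D is not shown to differ between them.

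TpnC4, an isoform of flight muscle, showed the largest fold among the called genes at the lowest counts: 13 and 26 estimated counts in double-GKD, 18 and 13 in Piwi-GKD-labelled libraries, 5 and 2 in HP1a-GKD-labelled libraries and 2 and 1 in Ctrl. Its log2 fold change was 3.47 ± 0.65 in double-GKD (adjusted p = 0.00324, edgeR) and 3.14 ± 0.67 in Piwi-GKD-labelled libraries (adjusted p = 0.00534). Because these 4 libraries alone brought TpnC4 past the filter on low counts, its call is a description and not an independent test. With 3 counts in Ctrl in all, the ratio of scaled counts was 12.1 in double-GKD, with an exact 95% counting interval of 3.84 to 61.0, and 9.47 in Piwi-GKD-labelled libraries, with an interval of 2.95 to 48.4. TpnC41C, an adult muscle isoform, had 9.0 and 16.4 estimated counts in double-GKD, 13.0 and 19.0 in Piwi-GKD-labelled libraries, 10 and 11 in HP1a-GKD-labelled libraries and 11 and 19 in Ctrl. These ranges overlap, and neither -0.38 ± 0.44 in double-GKD (adjusted p = 0.493) nor -0.03 ± 0.43 in Piwi-GKD-labelled libraries (adjusted p = 0.965) passed the threshold. TpnC25D had 18 and 3 estimated counts in double-GKD, 11.9 and 6 in Piwi-GKD-labelled libraries, 1 in each HP1a-GKD-labelled library and 4 and 1 in Ctrl. Its values of 1.96 ± 1.06 (adjusted p = 0.153) and 1.67 ± 1.08 (adjusted p = 0.223) in the same 2 comparisons were not past the threshold, and its replicates differ several fold. It overlaps tkv, the gene of a BMP receptor, in the Release 6 annotation.

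**Figure D2:**
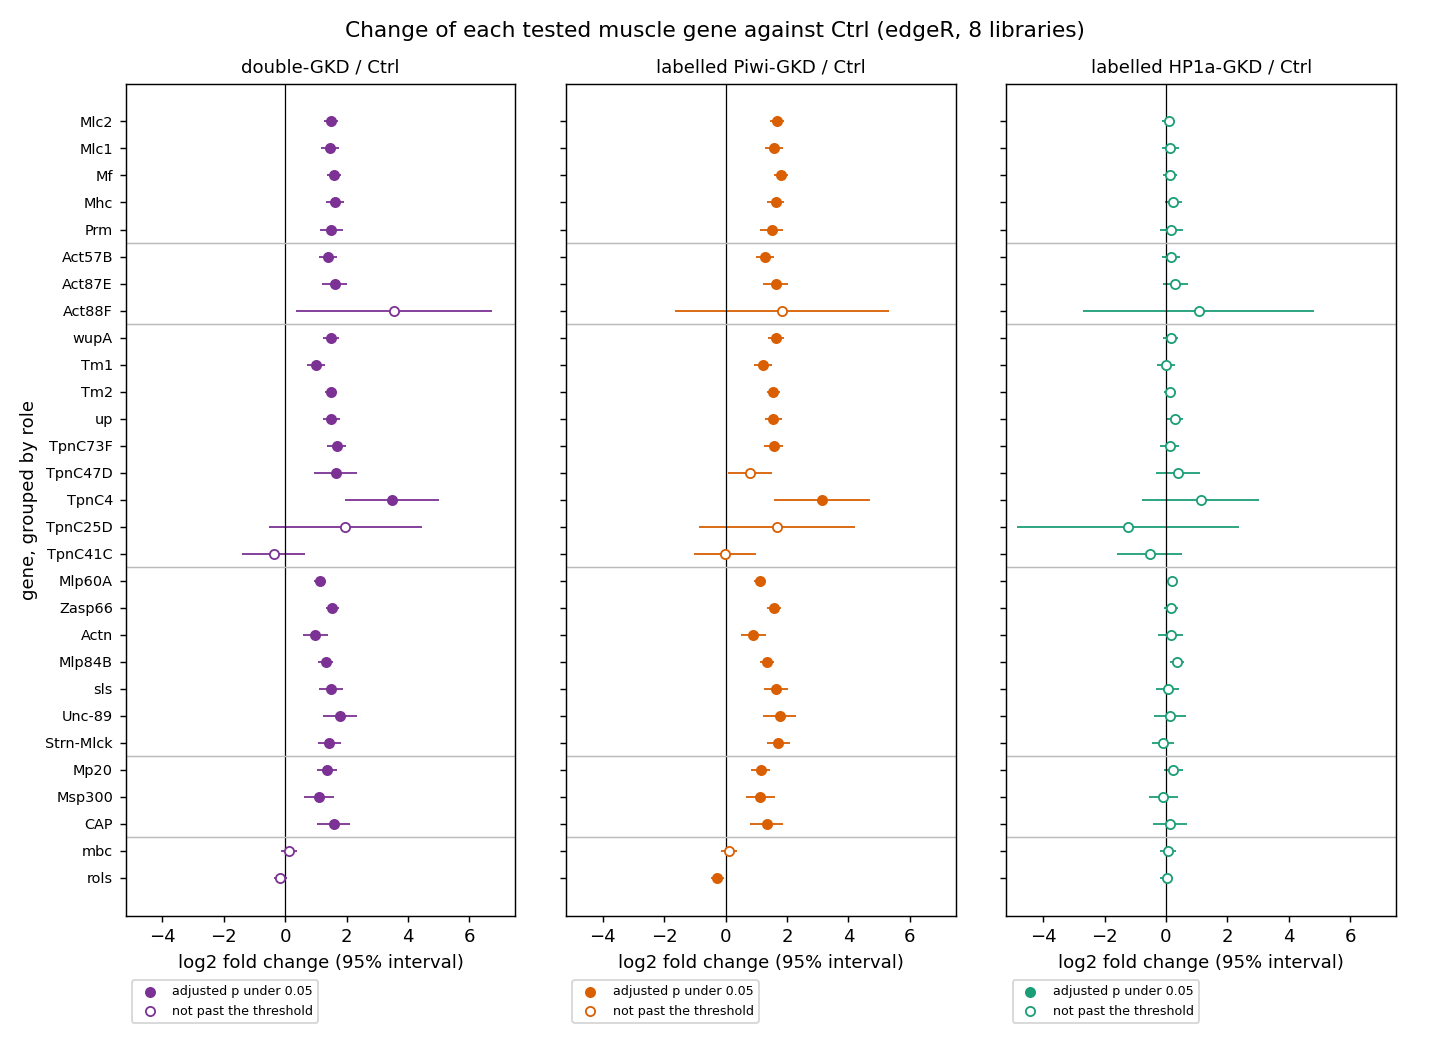
log2 fold change of the 29 tested muscle genes against Ctrl, with 95% intervals, for double-GKD, Piwi-GKD-labelled libraries and HP1a-GKD-labelled libraries; filled points passed an adjusted p of 0.05. In double-GKD 24 points and in Piwi-GKD-labelled libraries 23 points are filled to the right of 0, in HP1a-GKD-labelled libraries 0.

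At the Z-disc and along the titin-like proteins, all 7 genes found rose in both comparisons. Mlp60A, a muscle LIM protein of the Z-disc, had 212 and 200.0 CPM in double-GKD, 209 and 201 CPM in Piwi-GKD-labelled libraries, 108 and 108 CPM in HP1a-GKD-labelled libraries and 88.7 and 98.8 CPM in Ctrl. It rose by 1.14 ± 0.08 on the log2 scale in double-GKD (adjusted p = 4.17e-05, edgeR) and by 1.13 ± 0.08 in Piwi-GKD-labelled libraries (adjusted p = 3.88e-05), among the smaller changes. Its effective length is only 191 bases in Ctrl, so that its high TPM rests on fewer counts than those of other genes at that level. The gene sls, sallimus, which spans from the Z-disc towards the thick filament, rose 2.79-fold in double-GKD and 3.10-fold in Piwi-GKD-labelled libraries, and Unc-89, obscurin of the M-line, rose 3.44-fold and 3.39-fold. Strn-Mlck, stretchin, of the thick filament region, rose 2.71-fold and 3.29-fold, and Zasp66, a Z-disc PDZ protein, 2.89-fold and 2.99-fold. Mlp84B, the second muscle LIM protein, rose 2.49-fold and 2.55-fold. Actn, alpha-actinin, which crosslinks actin at the Z-disc and elsewhere in the cytoskeleton, had the smallest fold of these 7, 1.98 in double-GKD and 1.87 in Piwi-GKD-labelled libraries.

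All 3 genes of attachment and scaffold rose in both comparisons. Mp20, a calponin-like protein of synchronous muscle, had 398 and 348 CPM in double-GKD, 356 and 285 CPM in Piwi-GKD-labelled libraries, 172 and 172 CPM in HP1a-GKD-labelled libraries and 156 and 135 CPM in Ctrl. It rose by 1.36 ± 0.14 on the log2 scale in double-GKD (adjusted p = 0.000149, edgeR) and by 1.14 ± 0.14 in Piwi-GKD-labelled libraries (adjusted p = 0.000315). Msp300, a nesprin that holds muscle nuclei in place, rose 2.14-fold in double-GKD and 2.19-fold in Piwi-GKD-labelled libraries. CAP, a vinculin-binding protein of muscle attachment sites, rose 2.98-fold and 2.52-fold.

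The 2 genes of myoblast fusion did not rise in either comparison. rols, the scaffold protein that assembles the fusion site, had 76.8 and 73.5 CPM in double-GKD, 72.5 and 66.2 CPM in Piwi-GKD-labelled libraries, 84.7 and 85.6 CPM in HP1a-GKD-labelled libraries and 88.8 and 78.9 CPM in Ctrl. All 4 libraries of double-GKD and Piwi-GKD-labelled libraries lie below both Ctrl libraries. rols fell by 0.27 ± 0.09 on the log2 scale in Piwi-GKD-labelled libraries (adjusted p = 0.0312, edgeR), and its value of -0.16 ± 0.09 in double-GKD was not past the threshold (adjusted p = 0.165). With DESeq2 the adjusted p of the Piwi-GKD-labelled libraries was 0.0816, and with library totals as the only scaling the value was -0.03, and so this call depends on the processing. It was also lost without Ctrl replicate 1, without Piwi-GKD-labelled replicate 2 and without either HP1a-GKD-labelled library, with edgeR adjusted p of 0.0538 to 0.144. mbc, the exchange factor that activates Rac in fusion and in migrating cells, had 230 and 189 CPM in double-GKD, 220 and 197 CPM in Piwi-GKD-labelled libraries, 198 and 206 CPM in HP1a-GKD-labelled libraries and 196 and 191 CPM in Ctrl. Its log2 fold changes of 0.11 ± 0.11 in both double-GKD (adjusted p = 0.423) and Piwi-GKD-labelled libraries (adjusted p = 0.433) were not past the threshold.

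Apart from rols and mbc, the 22 muscle genes with at least 100 counts in every library all rose, within a narrower range than with those 2 included. Their log2 fold changes ran between 0.99 for Actn and 1.78 for Unc-89 in double-GKD, with a median of 1.49 and an SD over genes of 0.21, and between 0.90 for Actn and 1.80 for Mf in Piwi-GKD-labelled libraries, with a median of 1.56 and an SD of 0.24. With rols and mbc included, the SD over the 24 genes was 0.46 in double-GKD and 0.50 in Piwi-GKD-labelled libraries. The lowest values were then those of rols, -0.16 and -0.27. The muscle genes share their ovaries and libraries, so their fold changes are not independent of each other.

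In HP1a-GKD-labelled libraries the muscle genes stood slightly above Ctrl without passing the threshold. No member was called up, against 0.877% of all tested genes, and none was called down, against 0.492%. DESeq2 also called 0. In edgeR 3 of the 29 had an unadjusted p under 0.05, namely up, Mlp60A and Mlp84B, beside 1055 of all 9346 tested genes, a similar share. The median log2 fold change was 0.15 with 25 of 29 above 0, beside 4641 of 9346 over all tested genes. This median was -0.05 when the libraries were scaled to the list of somatic follicle and escort cell genes described below. The largest value among the well-counted genes was that of Mlp84B, with 41.1 and 46.5 TPM in HP1a-GKD-labelled libraries and 33.1 and 33.0 TPM in Ctrl. Its log2 fold change was 0.35 ± 0.10, with an interval of 0.12 to 0.58 (edgeR adjusted p = 0.202). For Mhc the interval was -0.04 to 0.51, and for Mlc2 it was -0.13 to 0.30, so changes as large as those in double-GKD lie outside both.

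Double-GKD was also set against each single knockdown. Against HP1a-GKD-labelled libraries, 24 of 29 muscle genes rose and 0 fell, against a background of 25.3% up and 25.6% down, with a median log2 fold change of 1.33. Leaving out Act88F, TpnC4 and TpnC25D, 23 of 26 rose and 0 fell, with a median of 1.30. Against Piwi-GKD-labelled libraries, no muscle gene was called up, beside 0.417% of all tested genes, or down, beside 0.621%. DESeq2 again called 0, and 1 gene, TpnC47D, had an unadjusted p under 0.05 (edgeR), beside 1078 of all 9346 tested genes. The median log2 difference between double-GKD and Piwi-GKD-labelled libraries was -0.01, with 14 of 29 above 0, beside 4833 of 9346 over all tested genes. The intervals show how large a difference these libraries could hide: for Mhc it was -0.29 to 0.26, for Mlc2 -0.39 to 0.04, for Act57B -0.20 to 0.40 and for sls -0.54 to 0.23.

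The makeup of the muscle RNA was similar in the 4 groups. Act57B took 14.2 ± 0.53% of the summed muscle TPM in double-GKD, 12.6 ± 1.66% in Piwi-GKD-labelled libraries, 14.6 ± 0.27% in HP1a-GKD-labelled libraries and 14.6 ± 0.81% in Ctrl (SD, n = 2 each). Over the 8 libraries the 10 most abundant genes, Act57B, Mlc2, Tm1, wupA, Mlc1, Mf, Mlp60A, Mhc, Tm2 and up, made up 84.9% of the sum. Mlp60A had a smaller share in double-GKD, 7.0 ± 0.16%, and in Piwi-GKD-labelled libraries, 6.60 ± 0.04%, than in HP1a-GKD-labelled libraries, 8.87 ± 0.40%, and in Ctrl, 8.54 ± 0.14%. The share of Mf was larger in double-GKD, 8.15 ± 0.41%, and in Piwi-GKD-labelled libraries, 9.17 ± 1.02%, than in HP1a-GKD-labelled libraries, 6.96 ± 0.27%, and in Ctrl, 7.03 ± 0.40%. Shares of 1 sum are not independent and were not tested.

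**Figure D3:**
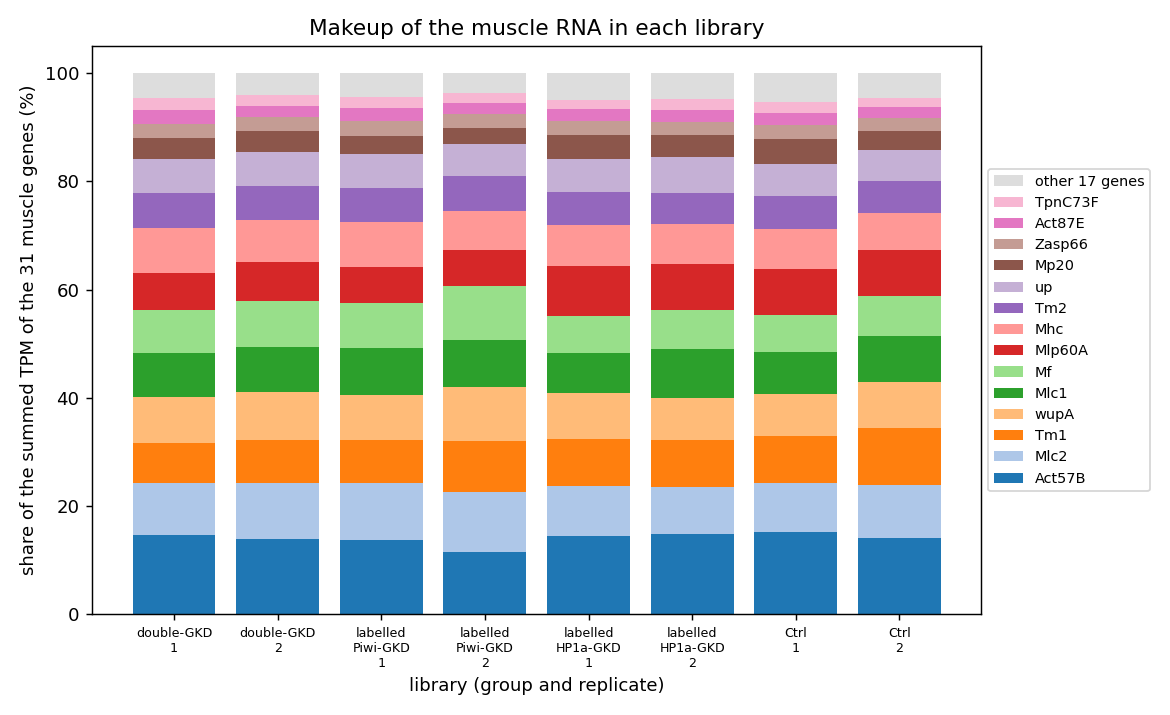
Share of each of the 14 most abundant muscle genes in the summed TPM of the 31 muscle genes, in percent, in each library, with the other 17 genes in grey. The order and width of the bands are similar in all 8 libraries, with a narrower Mlp60A band and a wider Mf band in double-GKD and in Piwi-GKD-labelled libraries.

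The cytoplasmic relatives of the muscle myosins and actins had smaller log2 fold changes than the muscle forms, and 4 of 5 rose; the difference in fold was not tested. zip, the non-muscle myosin heavy chain, rose by 0.91 on the log2 scale in double-GKD (adjusted p = 0.00196, edgeR) and by 0.80 in Piwi-GKD-labelled libraries (adjusted p = 0.00345). The non-muscle form gives a reference within each library. The TPM ratio of Mhc to zip was 12.7 and 12.9 in double-GKD, 13.95 and 14.13 in Piwi-GKD-labelled libraries, 8.45 and 8.22 in HP1a-GKD-labelled libraries and 7.10 and 8.65 in Ctrl. Both sets of ratios lie above every ratio of the other 2 groups. Mlc2 over sqh, the non-muscle regulatory light chain, behaved in the same way, at 7.03 and 7.55 in double-GKD, 8.55 and 9.44 in Piwi-GKD-labelled libraries, 4.54 and 4.88 in HP1a-GKD-labelled libraries and 4.00 and 5.38 in Ctrl. Mlc1 over Mlc-c, the cytoplasmic alkali light chain, averaged 5.87 ± 0.28 in double-GKD, 6.53 ± 0.43 in Piwi-GKD-labelled libraries, 3.34 ± 0.38 in HP1a-GKD-labelled libraries and 3.18 ± 0.58 in Ctrl (SD, n = 2). Act5C, a cytoplasmic actin, was not called, at 0.07 in double-GKD and 0.10 in Piwi-GKD-labelled libraries, and Act57B over Act5C averaged 2.62 ± 0.25, 2.41 ± 0.19, 1.17 ± 0.03 and 1.05 ± 0.02 in double-GKD, Piwi-GKD-labelled libraries, HP1a-GKD-labelled libraries and Ctrl. Act57B over Act42A, the other cytoplasmic actin, averaged 2.65 ± 0.33 in double-GKD, 3.02 ± 0.70 in Piwi-GKD-labelled libraries, 1.70 ± 0.09 in HP1a-GKD-labelled libraries and 1.85 ± 0.04 in Ctrl. Ratios within a library do not depend on how libraries are scaled.

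A further list of 18 muscle genes, of excitation, attachment and transcription, moved in the same direction, with smaller medians. In double-GKD 17 rose and 1 fell, with a median log2 fold change of 0.93, and in Piwi-GKD-labelled libraries 16 rose and 1 fell, with a median of 0.95. Argk1, arginine kinase, which buffers ATP in muscle, was the most abundant of them and rose by 0.87 in double-GKD (adjusted p = 0.000237, edgeR) and by 0.92 in Piwi-GKD-labelled libraries. bt, projectin, a further titin-like kinase, stood at 291 and 195 TPM in double-GKD, 346 and 238 TPM in Piwi-GKD-labelled libraries, 72.1 and 75.0 TPM in HP1a-GKD-labelled libraries and 74.0 and 62.4 TPM in Ctrl, and rose by 1.50 in double-GKD (adjusted p = 0.000194, edgeR). Mef2, the transcription factor of muscle differentiation, rose by 0.95 and 1.01 in double-GKD and in Piwi-GKD-labelled libraries. The single gene that fell was Gpdh1, a metabolic enzyme, by 0.38 on the log2 scale in double-GKD and by 0.40 in Piwi-GKD-labelled libraries. In HP1a-GKD-labelled libraries, 0 of 18 were called, beside 0.877% of all tested genes up and 0.492% down. The median there was 0.13, and 1 gene had an unadjusted p under 0.05 in edgeR.

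Most markers of germ cells fell where the muscle genes rose, and most markers of somatic follicle and escort cells rose. Of 7 germ cell markers found, 6 fell in double-GKD and 6 in Piwi-GKD-labelled libraries, with medians of -1.74 and -1.72, and their summed level was 888 to 991 CPM in double-GKD, 888 to 939 CPM in Piwi-GKD-labelled libraries, 3906 to 4012 CPM in HP1a-GKD-labelled libraries and 4507 to 4998 CPM in Ctrl. osk, a maternal mRNA of the germ plasm, fell by 2.91 in double-GKD, whereas grk, the signal of the oocyte, was not called at 0.05. Of 7 markers of somatic follicle and escort cells, 5 rose in both comparisons, with medians of 1.04 in double-GKD and 0.81 in Piwi-GKD-labelled libraries, and their sum was 1672 to 1759 CPM in double-GKD, 1292 to 1517 CPM in Piwi-GKD-labelled libraries, 793 to 844 CPM in HP1a-GKD-labelled libraries and 679 to 756 CPM in Ctrl. Inx2, a gap junction protein, and Fas3, an adhesion protein, were the most abundant of these and rose by 1.63 and 2.19 in double-GKD, while tj, the factor of early follicle cells, was not called at 0.22.

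Lists of fat body and blood cells had larger medians than muscle, a difference that was not tested. All 6 fat body markers rose, with median log2 fold changes of 2.21 in double-GKD and 2.75 in Piwi-GKD-labelled libraries, and 5 of 6 hemocyte markers rose, with medians of 1.94 and 2.37. Fbp1, a storage protein receptor of the fat body, rose by 2.39 in double-GKD and by 2.87 in Piwi-GKD-labelled libraries. Pxn, peroxidasin, rose by 2.37 and 2.46, while vkg, a collagen chain and the most abundant gene of the hemocyte list, was not called at 0.51 and 0.36. The fat body sum was 1091 to 1185 CPM in double-GKD, 1051 to 2190 CPM in Piwi-GKD-labelled libraries, 293 to 385 CPM in HP1a-GKD-labelled libraries and 233 to 250 CPM in Ctrl. The hemocyte sum was 2715 to 3692 CPM in double-GKD, 2751 to 3685 CPM in Piwi-GKD-labelled libraries, 1704 to 1850 CPM in HP1a-GKD-labelled libraries and 1446 to 2027 CPM in Ctrl. No marker of these 4 lists that was found stood at 0 in any library. No list had a call in HP1a-GKD-labelled libraries, where 0.877% of all tested genes were called up and 0.492% down. Lists this short would hold few calls at those shares in any case. The part of these cells, and of the fall of germ cell RNA, in the muscle result was not tested.

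**Figure D4:**
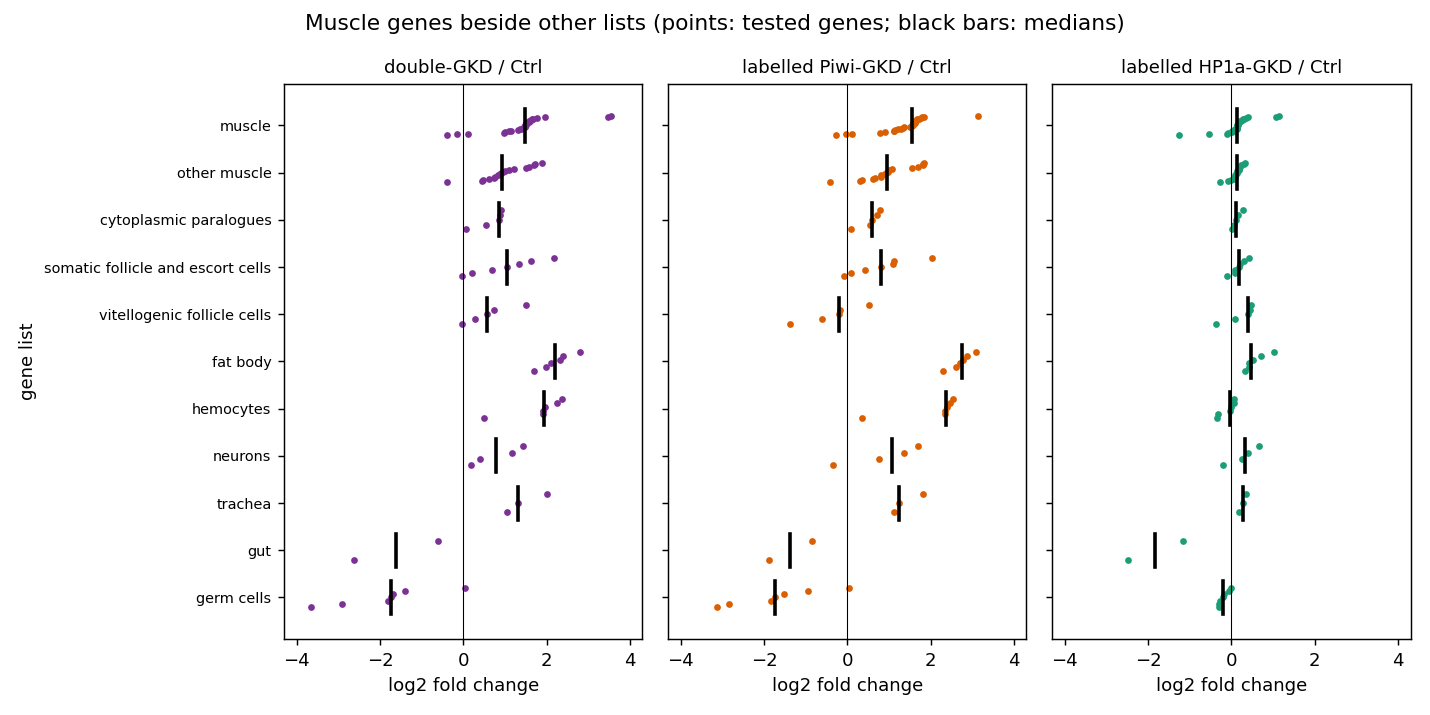
log2 fold change of each tested gene in the muscle list and 10 other lists, against Ctrl, for double-GKD, Piwi-GKD-labelled libraries and HP1a-GKD-labelled libraries; black bars are medians. Muscle medians of 1.49 and 1.55 lie between those of the somatic follicle and escort cells and those of the fat body, and the germ cell medians of these 2 comparisons are -1.74 and -1.72.

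How far the muscle genes rose depends on what the libraries are scaled to. A sum over the somatic follicle and escort cell list is set mostly by its most abundant genes, Inx2 and Fas3. In double-GKD both rose by more than the list median of 1.04. Scaling to the typical marker of the list was not tested. When they were scaled to the summed counts of the somatic follicle and escort cell list, the median over all genes shifted to -1.26 in double-GKD and to -0.96 in Piwi-GKD-labelled libraries, and the muscle medians were 0.22 and 0.59. On this scale 6 muscle genes were called up in double-GKD, namely Mhc, Act87E, TpnC73F, TpnC4, Zasp66 and Unc-89, and 3 were called down, namely mbc, rols and TpnC41C, against 5.40% of all genes up and 72.2% down. In Piwi-GKD-labelled libraries 17 were called up and 2, mbc and rols, down, against 10.2% of all genes up and 65.4% down. Mhc was at 0.36 in double-GKD and 0.66 in Piwi-GKD-labelled libraries. Actn, Tm1, Msp300 and Mlp60A turned negative in double-GKD, at -0.27, -0.26, -0.16 and -0.13, and TpnC47D and Actn in Piwi-GKD-labelled libraries, at -0.16 and -0.074, none of them past the threshold.

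The 2 replicates of a group differed by gene length. Among the 24 muscle genes with at least 100 counts in every library, the log2 ratio of replicate 1 to replicate 2 correlated with effective length by Spearman's rho of 0.57 in double-GKD, 0.61 in Piwi-GKD-labelled libraries, 0.01 in HP1a-GKD-labelled libraries and 0.53 in Ctrl. Over 6515 genes, which are not independent replicates and share these libraries, rho was 0.53, 0.55, -0.12 and 0.47 in the same groups. The 10 muscle genes longer than 3000 bases had a median log2 ratio of 0.35 in double-GKD and 0.38 in Piwi-GKD-labelled libraries, against 0.12 and 0.06 for the 14 shorter ones. The part of this length relation in the fold changes of long genes such as sls, Msp300 and Unc-89 was not tested.

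**Figure D5:**
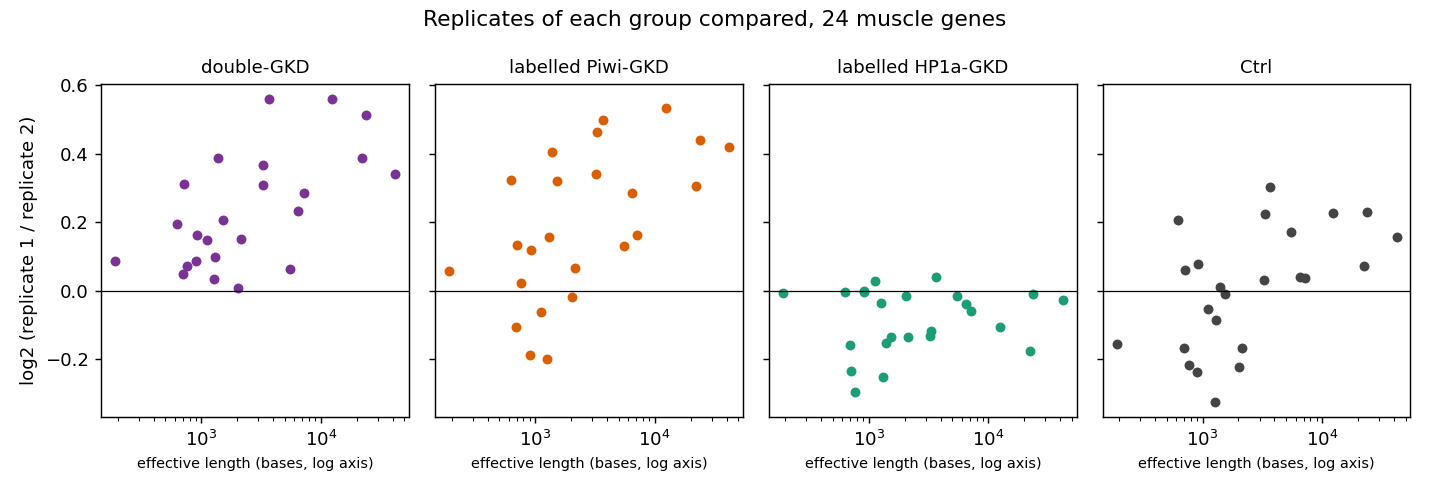
log2 ratio of replicate 1 to replicate 2 for the 24 muscle genes with at least 100 counts in every library, against their effective length in bases on a log axis, in the 4 groups. Points rise with length in double-GKD, in Piwi-GKD-labelled libraries and in Ctrl, with rho of 0.57, 0.61 and 0.53, and not in HP1a-GKD-labelled libraries.

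The effective length of a gene, which Salmon weights by the abundance of its transcripts, differed from Ctrl for a number of muscle genes. For some of them it also differed between replicates. How often lengths do not overlap with Ctrl over all genes was not counted. CAP had 4229 and 3960 bases in double-GKD, 4060 and 3805 bases in Piwi-GKD-labelled libraries, 3233 and 3652 bases in HP1a-GKD-labelled libraries and 3281 and 3159 bases in Ctrl. This was 27.2% longer in double-GKD and 22.1% longer in Piwi-GKD-labelled libraries than in Ctrl, without overlap. Tm1 went the other way, with 1222 and 1239 bases in double-GKD, 1210 and 1208 bases in Piwi-GKD-labelled libraries, 1328 and 1285 bases in HP1a-GKD-labelled libraries and 1370 and 1274 bases in Ctrl. Zasp66 was 3.5% longer in double-GKD and 2.9% longer in Piwi-GKD-labelled libraries. Some lengths also differed from Ctrl in HP1a-GKD-labelled libraries. The 2 Ctrl libraries of Strn-Mlck themselves lay far apart, at 27126 and 22220 bases. Against their mean it was 16.7% shorter in HP1a-GKD-labelled libraries and 12.1% shorter in Piwi-GKD-labelled libraries, both without overlap. It was 9.9% shorter in double-GKD, with overlap. sls was 2.5%, 2.7% and 3.9% shorter in the same order, without overlap. TpnC41C, at low counts, was 45.5% longer in HP1a-GKD-labelled libraries and 29.1% longer in double-GKD. In contrast, Mlc2, TpnC73F and Mp20 had the same effective length in all 8 libraries. With 2 libraries against 2, lack of overlap is common without any difference between groups. No exact test of these lengths could pass the threshold, and none was run.

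Of the 31 genes found, 15 overlap another gene in the Release 6 annotation, and the use of strand in the counting is not stated in the sources used here, so reads in the overlaps cannot be assigned. Insertion sites of transposable elements were called from the DNA of double-GKD females, whole flies of 2 to 4 days, older than the females of the RNA libraries, in 1 library without replicates, and 20 muscle genes had release 5 coordinates to compare with the 4084 sites. A single gene, TpnC41C, held a site within it, an INE-1 element with a frequency of 0.924, and it had 8 sites within 10 kb. The other muscle genes with coordinates had none within 3 kb. Of these, 5, namely Act57B, wupA, Actn, Mlp84B and mbc, had 1 each within 10 kb, the nearest being a Juan element at 3527 bp from Actn. These 5 sites had read support from 1 side only, at frequencies of 0.379 to 0.927. Genes without coordinates, among them Mhc, sls, Msp300, rols and CAP, were not compared. TpnC41C, with the most sites, was not called in any of the 5 comparisons.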

How the data were processed

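Ovary RNA was sequenced in 8 libraries as single-end reads after rRNA depletion, which the authors mapped to the release 5 assembly (dm3) with STAR; Salmon gave the gene values on BDGP5 models. Tool versions and the use of strand are not given in the sources used here. The deposited estimated counts are Salmon's reads per gene, not normalized. The deposited TPM values are these counts per effective length, with 1 fixed sum for every library, as the authors computed them. The deposited effective lengths are in bases. Insertion sites, with the fraction of read pairs that support each deposited site, came from PoPoolationTE2.

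Groups came from the sample labels. The 32 members and the other lists were chosen with earlier results of these data known. Gene names came from a Release 6 gene table (29 members) and a supplementary gene table (2). No sequences are shown, since none were at hand for these genes. Estimated counts were rounded and fitted with edgeR 4.0.16 (R 4.3.3; glmQLFit, glmQLFTest) over all 8 libraries in 1 model of 4 groups, with TMM scaling (factors 0.909 to 1.10) and filterByExpr, with Benjamini-Hochberg adjustment across the 9346 tested genes. Calls needed an adjusted p below 0.05, and errors of log2 fold changes are standard errors. Replicates were labelled as biological, and p-values measure the spread between them. No 2 libraries were identical. The fit was tested on simulated data. Named with full statistics were the most abundant gene of each role and the 3 largest and 3 smallest log2 fold changes in each of the comparisons of double-GKD and Piwi-GKD-labelled libraries with Ctrl, and any member called in HP1a-GKD-labelled libraries against Ctrl or in double-GKD against Piwi-GKD-labelled libraries (none was). For other lists the 2 to 4 most abundant genes could be named. Mef2, Gpdh1, grk, tj, psd, Syt1, nSyb, brp and the gut genes were named after their values were seen. Other members have fewer values, and TpnC47D, fln and Mlp84B were given per library after their values were seen. Alternatives were DESeq2 1.42.0, 4 other scalings, no filter, only the 4 libraries compared, exchanged labels, a replicate block and leaving out each library. Deposited columns of comparisons were not used. Figures were drawn with matplotlib 3.10.9 in Python 3.11.15.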

Additional observations from a re-analysis of the deposited data

How the results depend on the processing

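Each group had 2 libraries, so each SD comes from 1 difference. In a fit without 1 library the lone library of a group is assumed to vary like the other groups. Same-numbered replicates deviated together only weakly (r of -0.04 to 0.23 between groups, 0.11 on average), so the numbers were not taken as pairs. With the replicate block, 25 muscle genes rose in double-GKD, 24 in Piwi-GKD-labelled libraries and 26 in double-GKD against HP1a-GKD-labelled libraries, beside 2868, 2942 and 2620 of 9346 genes, and Act88F in double-GKD passed the threshold (3.46, adjusted p = 0.00589, edgeR). At 0 to 22.1 estimated counts of fln and 3.1 to 12.2 of Act79B, depth limits what a test can detect. In double-GKD, DESeq2, 3 scalings and the fit without a filter called 24 to 25 muscle genes up beside 2437 to 3366 of all genes, and in Piwi-GKD-labelled libraries 23 to 25 beside 2475 to 3621.

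The number of muscle genes down in Piwi-GKD-labelled libraries, 1 in the fit reported, was 0 with DESeq2, library totals, upper quartile scaling or only the 4 libraries compared, and 0 to 1 without a library. The muscle median was 1.79 with library totals and 1.69 with upper quartile scaling in Piwi-GKD-labelled libraries, 1.69 and 1.62 in double-GKD, and 1.52 and 1.47 in double-GKD against HP1a-GKD-labelled libraries. These 2 scalings shifted the median over all genes by 0.24 and 0.14, 0.20 and 0.13, and 0.20 and 0.15 in the same comparisons, and with them 3621 and 3211 genes rose and 1805 and 2120 fell in Piwi-GKD-labelled libraries, against 2739 and 2723. Scaled to the somatic list, the median was 0.59 in Piwi-GKD-labelled libraries with 2 down, 0.22 in double-GKD with 6 up and 3 down, -0.053 in HP1a-GKD-labelled libraries, -0.30 in double-GKD against Piwi-GKD-labelled libraries, and 0.26 with 6 up and 2 down in double-GKD against HP1a-GKD-labelled libraries, where all genes shifted by -1.05. On that scale 952 genes rose and 6112 fell in Piwi-GKD-labelled libraries, 505 rose and 6749 fell in double-GKD, and 451 rose and 6446 fell in double-GKD against HP1a-GKD-labelled libraries.

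With exchanged labels of the single knockdowns, the comparison of Piwi-GKD with Ctrl had 0 up, 0 down and a median of 0.15, that of HP1a-GKD 23 up, 1 down and 1.55, double-GKD against Piwi-GKD 24 up and 1.33, and double-GKD against HP1a-GKD 0 up and -0.013. Leaving out each library moved the median between 1.40 and 1.56 in Piwi-GKD-labelled libraries, 1.32 and 1.52 in double-GKD, -0.13 and 0.16 in double-GKD against Piwi-GKD-labelled libraries, and 1.25 and 1.37 against HP1a-GKD-labelled libraries. In HP1a-GKD-labelled libraries against Ctrl, the median was 0.10 without their replicate 2 and 0.21 without their replicate 1. Of single genes, TpnC41C changed sign in Piwi-GKD-labelled libraries with library totals (0.21), upper quartile scaling (0.12), without Ctrl replicate 2 (0.41) or without Piwi-GKD-labelled replicate 1 (0.25), and in double-GKD without Ctrl replicate 2 (0.051). Without 1 library its lowest values were -0.38 and -0.73 in the same comparisons. mbc changed sign on the somatic scale (-0.86 in Piwi-GKD-labelled libraries, -1.15 in double-GKD) and in double-GKD without its replicate 1 (-0.033). Mlp60A (-0.13), Actn (-0.27), Tm1 (-0.26) and Msp300 (-0.16) did so on the somatic scale in double-GKD, TpnC47D (-0.16) and Actn (-0.074) on that scale in Piwi-GKD-labelled libraries, rols in double-GKD with library totals (0.043), and with exchanged labels rols (0.023), TpnC25D (-1.25), Strn-Mlck (-0.095) and Msp300 (-0.087) in Piwi-GKD. Exchanging the labels only renames the groups, so those values are the ones of HP1a-GKD-labelled libraries. A change of scaling shifts all genes together. The cause of the changes without a library was not tested. TpnC25D in double-GKD was at 2.78 without replicate 2, a value that rests on the 1 double-GKD library left.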

Other observations

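Nerve and trachea reach the ovary with its muscle, and their markers were read as well. All 3 tracheal markers rose in double-GKD and in Piwi-GKD-labelled libraries, with median log2 fold changes of 1.31 and 1.25 (edgeR). pio, a protein of the tracheal lumen matrix, stood at 73.4 and 47.7 TPM in double-GKD, 67.5 and 43.7 TPM in Piwi-GKD-labelled libraries, 14.6 and 15.4 TPM in HP1a-GKD-labelled libraries and 13.3 and 11 TPM in Ctrl. Of 4 neuronal markers found, 2 rose, elav and Syt1, and nSyb and brp were not called. Their median was 0.79 in double-GKD and 1.07 in Piwi-GKD-labelled libraries, with lowest values of 0.19 and -0.35. elav, the RNA-binding protein of neurons, stood at 14.1 and 9.58 TPM in double-GKD, 16.1 and 10.3 TPM in Piwi-GKD-labelled libraries, 4.33 and 4.88 TPM in HP1a-GKD-labelled libraries and 3.84 and 2.83 TPM in Ctrl. In HP1a-GKD-labelled libraries none of the 3 tracheal or 4 neuronal markers was called, with 0 and 1 at an unadjusted p under 0.05. Of all tested genes, 0.877% were called up there and 0.492% down.

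Of the gut markers, alphaTry and Mal-A1, digestive enzymes, were not called in any comparison with Ctrl. In double-GKD 1 of the 2, Mal-A1, had an unadjusted p under 0.05 in edgeR. The markers betaTry and Jon65Aiv were too low to test. The gut list held 179 and 15.7 summed counts in Ctrl, 23.4 and 22.5 in double-GKD, 49.0 and 19.5 in Piwi-GKD-labelled libraries and 24.8 and 15.9 in HP1a-GKD-labelled libraries. With 1 Ctrl library so far above the other, these values show neither a rise nor its absence. Of 5 tested genes of yolk production and late follicle cells, 0 rose and 1, psd, fell in Piwi-GKD-labelled libraries, and 0 were called in double-GKD (0 with an unadjusted p under 0.05 in edgeR). The sum of that list also varied widely between replicates. It was 261 and 90.0 CPM in Ctrl, 403 and 207 CPM in double-GKD and 259 and 56.7 CPM in Piwi-GKD-labelled libraries, so a lack of calls does not show a lack of change.

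In double-GKD replicate 2, Act88F with 75.2 and fln with 22.1 estimated counts, both genes of flight muscle, stood well above replicate 1 with 6.8 and 2.0, while TpnC4 had 26 and 13 in the same order. The ratio of scaled fln counts of double-GKD over Ctrl was 22.3, with an exact 95% counting interval of 3.63 to 916.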
